A study of Mus musculus with 17 samples.

Results

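The 37 genes described here encode enzymes that break down amino acids in the liver. They were chosen by gene symbol, and all 37 were found in both tables of counts, among 19151 genes measured under a high-fat diet (HFD) and 24233 genes measured under a high-fat, high-cholesterol Western diet (WD). Liver RNA was sequenced from male C57BL6 mice. In liver-specific NgBR knockout mice (N-LKO), a loxP-flanked NgBR (Nus1) allele is deleted by a Cre recombinase under the albumin promoter, so the deletion is aimed at hepatocytes and other liver cells keep the gene. WT mice served as controls. Mice received chow and then either diet for 16 weeks. HFD-fed mice gave 4 libraries of WT liver and 4 of N-LKO liver, and WD-fed mice gave 3 each of WT liver, N-LKO liver and N-LKO tumor. Labels name the replicates as biological, and whether a tumor and an N-LKO liver came from the same mouse is not given in the sources used here. NgBR forms with Dhdds the enzyme that makes dolichol, the lipid carrier for protein glycosylation, and the comparisons ask how its loss changes liver transcripts under each diet and in the tumors.

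The liver clears most amino acids taken up after a meal. A transaminase, dehydratase or oxygenase first removes or opens the amino group or ring, and the carbon skeleton then feeds gluconeogenesis, ketone bodies or one-carbon units while the nitrogen passes to urea. Histidine, serine and glutamine breakdown are known to be concentrated in hepatocytes near the portal vein, and many of these genes, Tat among them, are known to respond to glucagon, glucocorticoids and feeding. The enzymes are largely hepatocyte genes. In bulk tissue fewer hepatocytes and less RNA per hepatocyte cannot be told apart.

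Total counts were 9096110 to 12215784 per library under HFD and 15494731 to 20200618 under WD. Nus1 stood at 82.5 to 96.2 CPM (counts scaled to a common library size) in the HFD-fed WT group and at 29.4 to 38.0 CPM in the N-LKO group on that diet. Under WD it was at 88.2 to 98.9 CPM in WT livers, 41.7 to 51.1 CPM in N-LKO livers and 28.99 to 43.99 CPM in tumors, so each N-LKO and tumor library lay below each WT library of its diet. Dhdds overlapped between WT and N-LKO livers in both diets. Of 8 hepatocyte defining markers fixed as a list, 7 were in the tables and were tested, and Alb was at 23180 CPM or more in every WD library, tumors included. Under WD, replicates of a group differed across many of the amino acid breakdown genes at once. WT replicate 2 was the highest of the 3 WT libraries for 27 of the 37 genes and WT replicate 3 the lowest for 34. Among N-LKO livers replicate 2 was the lowest for 34, and among tumors replicate 3 was the highest for 31 and replicate 2 the lowest for 24. Each comparison under WD is therefore also given with libraries left out, singly and for WT replicate 2 and N-LKO replicate 2 together.

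Levels can be set beside each other only per length, here that of all annotated exons of a gene merged. Per kilobase of merged exon, the highest of the 37 in WT livers was Mat1a, which makes S-adenosylmethionine, at 922 CPM per kb under HFD and 1356 CPM per kb under WD. Next came Hpd of the tyrosine pathway (634 and 561 CPM per kb) and Bhmt, which remethylates homocysteine (630 and 393 CPM per kb). The order depends on these lengths. Before division by length, Bhmt was above Mat1a in WT HFD livers (mean 3627 against 3196 CPM). In WT WD livers it was below (2260 against 4701 CPM). Sdsl, a serine dehydratase-like gene, was the lowest of the 37 in WT HFD livers at 1.87 CPM per kb. Even so, the lowest count of any of the 37 genes in any library was 18, and all 37 passed the filter on low counts in every comparison.

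**Figure D1:**
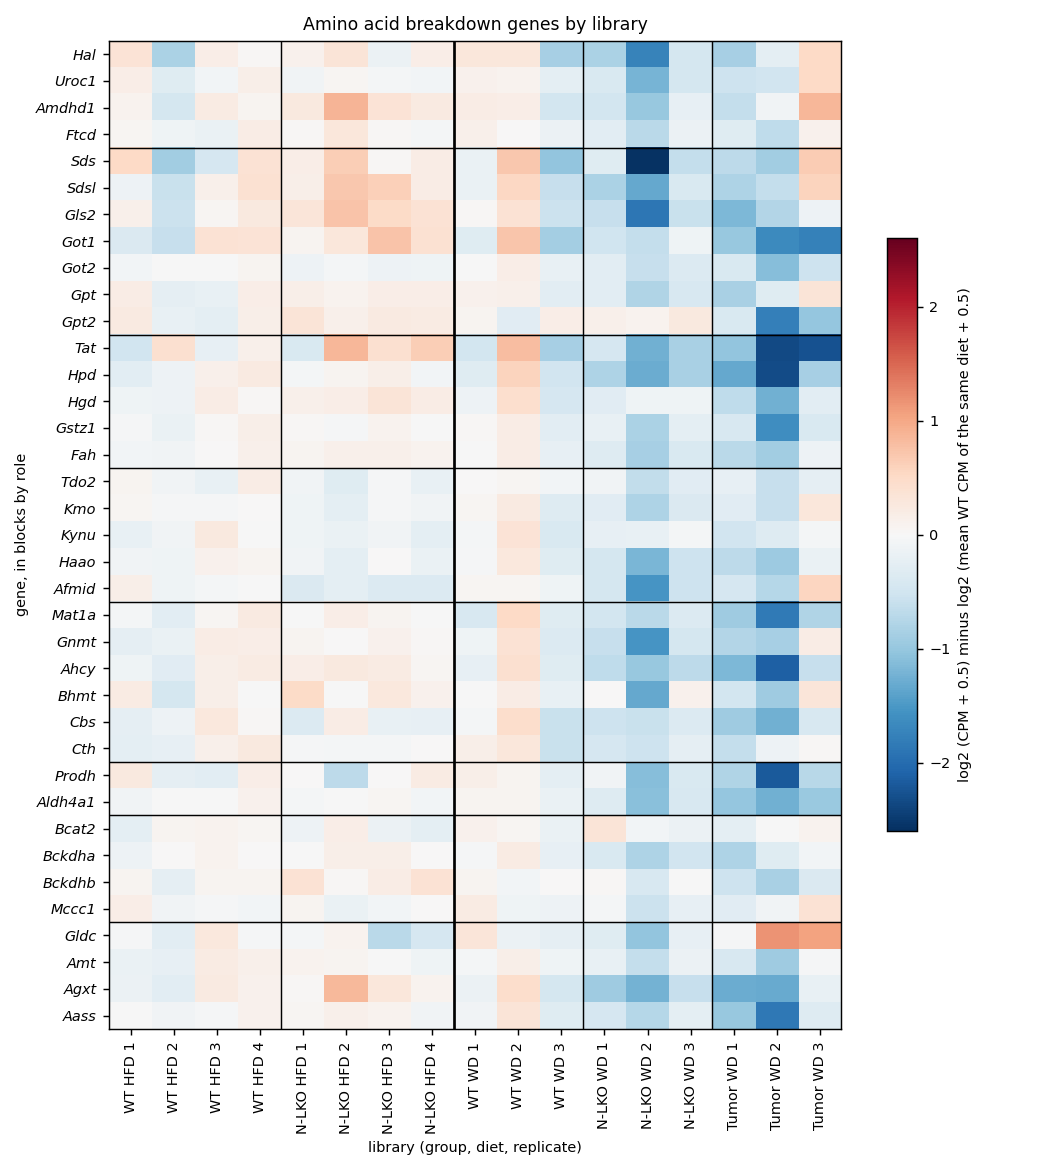
Each row is a gene and each column a library, and colour gives log2 (CPM + 0.5) minus log2 (mean CPM of the WT libraries of the same diet + 0.5). HFD columns are pale, with medians over the genes of -0.17 to 0.13, and the WD columns of N-LKO replicate 2 (-0.82) and tumor replicate 2 (-0.90) are the darkest blue.

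Under HFD, the amino acid breakdown genes of N-LKO livers stayed close to WT. Afmid, the formamidase that releases kynurenine from formylkynurenine, was the single gene that passed the test, and it fell. With edgeR's quasi-likelihood test at a Benjamini-Hochberg adjusted p under 0.05, 1 of 37 genes (2.7%) was called, where 4.84% of all 13460 tested genes were called. The median log2 fold change was 0.06 over the 37 genes and -0.01 over all genes, with 23 of the 37 above 0 and 14 below. At an unadjusted p under 0.05, 5 genes were found (13.5%, against 22.7% of all genes): Amdhd1, Gls2, Hgd, Afmid and Bckdhb.

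Afmid was at 87.3, 72.3, 75.3 and 77.8 CPM in the WT livers and at 59.9, 65.2, 60.9 and 60.8 CPM in the N-LKO livers. Every N-LKO library lay below every WT library. The log2 fold change was -0.34 (SE 0.08, edgeR adjusted p = 0.036). When libraries were left out singly, 2 of 8 fits kept the call, and over all alternatives the edgeR or DESeq2 adjusted p ran from 0.011 to 0.10. Afmid carried fractional counts in 16 of 17 libraries, which means that some of its reads were divided with another feature. Its level is uncertain to that extent. This limit is not peculiar to Afmid. Of the amino acid breakdown genes, 9 carried fractional counts in every library, 27, Afmid among them, in some, and 1 in none. The other 4 genes of tryptophan breakdown, Tdo2, Kmo, Kynu and Haao, lay between -0.16 and -0.12 in log2 fold change, and none passed.

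The largest positive differences under HFD were those of Sdsl and Gls2, and the largest negative ones after Afmid that of Gldc. Sdsl was at 2.5, 1.72, 3.11 and 3.87 CPM in WT and 3.15, 4.86, 4.57 and 3.28 CPM in N-LKO livers, and the groups overlapped (log2 fold change 0.50, SE 0.27, edgeR adjusted p = 0.287). Gls2, the liver glutaminase, was at 144, 88.5, 135 and 156 CPM in WT and 162.5, 219, 186 and 171 CPM in N-LKO livers. All N-LKO libraries lay above all WT libraries. Its log2 fold change was 0.50 (SE 0.16), with an edgeR adjusted p of 0.089 that missed the threshold and a DESeq2 adjusted p of 0.036 that passed it. DESeq2 called 2 of the 37 genes, Gls2 and Afmid, and 7.42% of all genes.

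Amdhd1, a step of histidine breakdown, was at 141, 96.5, 153 and 139 CPM in WT and at 159, 245, 169 and 155 CPM in N-LKO livers. Amdhd1 and Gls2 were the 2 genes (5.41%) whose N-LKO libraries were all above WT, as was so for 7.39% of all genes. Kmo, the kynurenine hydroxylase, and Afmid were the 2 (5.41%) with all N-LKO libraries below WT, against 7.4% of all genes. Gldc, the glycine decarboxylase of the mitochondrial glycine cleavage system, was at 101, 85.4, 125 and 102.05 CPM in WT and 99.8, 111, 63.2 and 76.6 CPM in N-LKO livers (log2 fold change -0.24, SE 0.17, edgeR adjusted p = 0.418). Its groups overlapped.

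Under WD, 35 of the 37 genes had a lower mean in N-LKO than in WT livers, but none passed the test. edgeR called 0 of the 37 genes and 0% of all 17829 genes tested, while at an unadjusted p under 0.05 it found 10 of the 37 genes (27%), all lower, against 5.31% of all genes lower. DESeq2 also called 0 of the 37, with 0.555% of all genes called. The median log2 fold change of the 37 genes was -0.48, where that of all genes was 0.01. In 14 genes (37.8%) all N-LKO libraries lay below all WT libraries, as for 13.6% of all genes.

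The lower values ran through all 8 roles. Median log2 fold changes were -0.59 for the 4 histidine enzymes, -0.47 for the 7 genes of serine, threonine and glutamine breakdown and transamination, -0.51 for the 5 tyrosine enzymes and -0.48 for the 5 tryptophan enzymes. They were -0.50 for the 6 methionine genes, -0.52 for both proline enzymes, -0.19 for the 4 branched chain genes and -0.48 for the 4 genes of glycine, glyoxylate and lysine. The genes at an unadjusted p under 0.05 were Gls2, Hpd, Fah, Haao, Afmid, Gnmt, Ahcy, Aldh4a1, Bckdha and Agxt. The 2 genes above 0 were Gpt2, the mitochondrial alanine transaminase, and Bcat2, the first step of branched chain breakdown outside the liver.

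**Figure D2:**
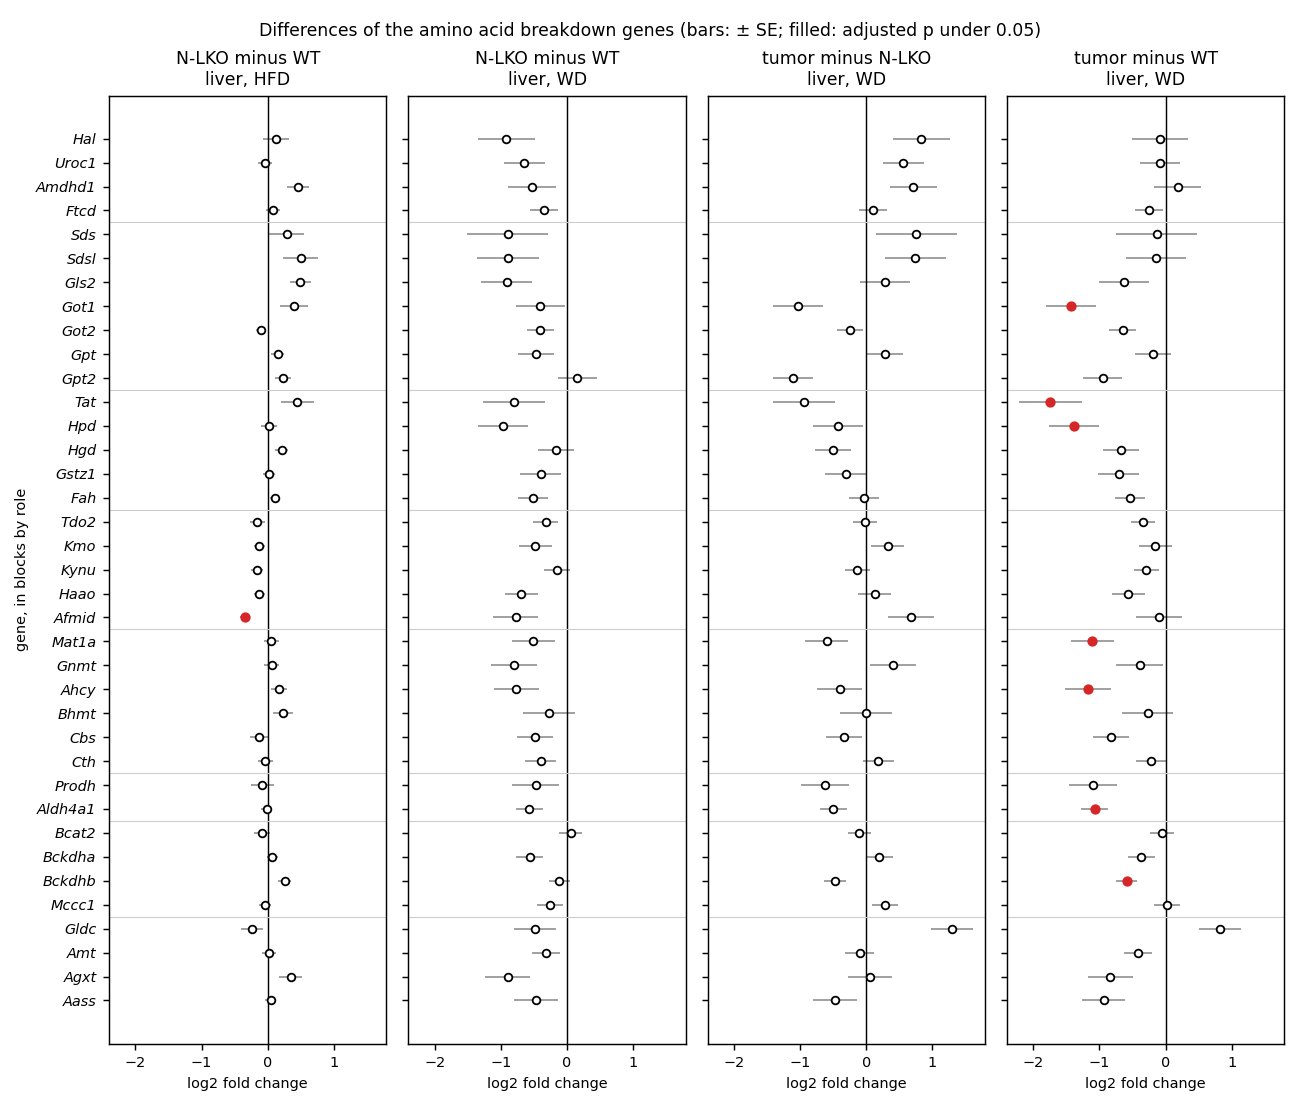
Points are log2 fold changes of the 37 genes in 4 comparisons, bars are ± SE, and filled red points passed an edgeR adjusted p under 0.05. Afmid is the filled point under HFD, 7 genes are filled in tumor versus WT liver, and under WD the N-LKO values of 35 genes lie left of 0 without a filled point.

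Hpd, which turns hydroxyphenylpyruvate into homogentisate, had the largest negative difference under WD. It was at 961, 1775 and 844 CPM in WT livers and 685, 489.7 and 662 CPM in N-LKO livers, a log2 fold change of -0.96 (SE 0.38, edgeR adjusted p = 0.379). The groups did not overlap, and WT replicate 2 stood far above the other WT libraries. Hal, the histidine ammonia-lyase, was at 257, 256 and 114.2 CPM in WT and 117, 62.8 and 151 CPM in N-LKO livers (log2 fold change -0.92, SE 0.43, edgeR adjusted p = 0.417). One WT library lay among the N-LKO values. Gpt2 was at 873, 682 and 937 CPM in WT and 905, 889 and 986 CPM in N-LKO livers (log2 fold change 0.16, SE 0.29, edgeR adjusted p = 0.835), and Bcat2 at 13.7, 13.2 and 11.3 CPM against 16.2, 12.0 and 11.4 CPM (log2 fold change 0.06, SE 0.18, edgeR adjusted p = 0.911). Both pairs of groups overlapped.

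The size of this difference moved with single libraries. Without WT replicate 2 the median log2 fold change of the 37 genes was -0.35 and 1 gene remained at an unadjusted p under 0.05. Without N-LKO replicate 2 it was -0.34 with 0 genes. Without both it was -0.20, with 29 of 37 genes below 0 and 0 at an unadjusted p under 0.05. In the other direction, it was -0.63 without WT replicate 3, with 36 of 37 below 0 and 15 genes at an unadjusted p under 0.05, and -0.57 without N-LKO replicate 1 or without N-LKO replicate 3, with 7 genes each. Without WT replicate 1 it was -0.51 with 4 genes. In a fit of only the N-LKO and WT livers, which leaves the tumors out of the spread, it was -0.47. There 35 of 37 genes were below 0 and 17 were at an unadjusted p under 0.05, and 6 of all 16867 genes passed the adjusted threshold. No gene of the 37 passed the adjusted threshold in any of these fits. The hepatocyte defining markers moved alongside, with a median log2 fold change of -0.53 and 7 of 7 below 0. Their summed level was 45727 to 55743 CPM in WT and 32690 to 41786 CPM in N-LKO livers, and the part of hepatocyte content in the lower values was not tested.

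**Figure D3:**
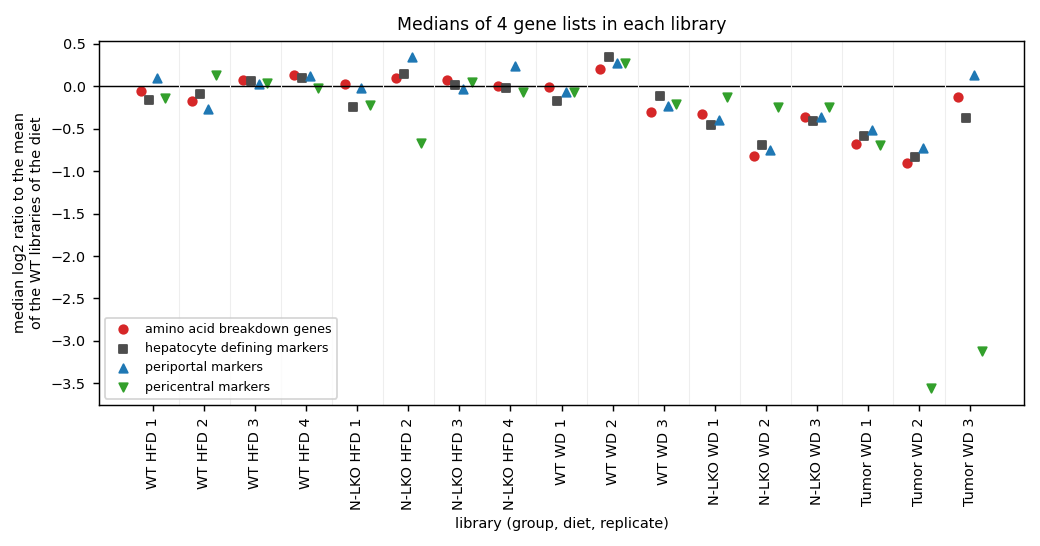
For each library the plot gives the median log2 ratio to the mean of the WT libraries of its diet, over the 37 amino acid breakdown genes, 7 hepatocyte defining markers, 14 periportal markers and 15 pericentral markers. N-LKO WD replicate 2 lies lowest of the N-LKO livers for the 37 genes (-0.82), and the pericentral medians of tumor replicates 2 and 3 (-3.56 and -3.12) lie far below the others.

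An interaction term, fitted to all 14 livers, asked whether loss of NgBR had another effect under WD than under HFD. The difference of log2 fold changes, WD minus HFD, had a median of -0.49 over the 37 genes and 0.00 over all 15850 genes, and 35 of 37 values were below 0. The hepatocyte defining markers had a median of -0.43 with 7 of 7 below 0, and Apoa2 passed (-0.74). The 14 periportal markers that are none of the 37 had a median of -0.76 with 12 of 14 below 0, and Cyp2f2 passed (-1.22). The 15 pericentral markers had a median of -0.05, with 9 of 15 below 0. The part of these shifts in the values of the 37 genes was not tested. No gene of the 37 passed (0, against 1.62% of all genes), while 17 (45.9%) were lower at an unadjusted p under 0.05, against 10.8% of all genes. DESeq2 called 7 of the 37 lower (18.9%), against 3.55% of all genes. These were Amdhd1, Gls2, Hpd, Fah, Ahcy, Bckdha and Agxt. Without WT WD replicate 2 and N-LKO WD replicate 2 the median was -0.19, with 34 of 37 below 0, 9 at an unadjusted p under 0.05 and 0 past the threshold, and 1 of all genes passed, where 257 had passed with all 14 livers. Without WT WD replicate 3 it was -0.60, and Gls2, Ahcy, Bckdha and Agxt passed. Diet and table of counts coincide, so they cannot be told apart, and only effects within a table were set against each other. The interaction fit shared 1 estimate of spread over both diets, with a common biological coefficient of variation of 0.163. That of the WD libraries, tumors included, was 0.243, so the interaction p-values may understate the spread under WD. The SE of the interaction was below that of the WD difference in Ahcy (0.23 against 0.34) but not in Gls2 (0.39 against 0.38).

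Gls2 had the largest difference between the diets. Under WD it was at 149.2, 189 and 97.9 CPM in WT and at 95.4, 39.3 and 96.8 CPM in N-LKO livers, so all N-LKO libraries lay below WT, though narrowly below WT replicate 3, whereas under HFD all lay above. The interaction was -1.38 (SE 0.39, edgeR adjusted p = 0.073), with adjusted p from 0.017 to 0.199 over the alternatives. Sdsl came next with an interaction of -1.37 (SE 0.47, edgeR adjusted p = 0.125). It was at 5.29, 9.02 and 3.82 CPM in WT and 3.18, 2.09 and 4.47 CPM in N-LKO livers under WD, where the groups overlapped.

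Agxt, which detoxifies glyoxylate to glycine in peroxisomes, was at 95.4, 87.9, 125 and 115 CPM in WT and 108, 190.0, 131 and 112 CPM in N-LKO livers on HFD. Under WD it was at 84.4, 129 and 67.9 CPM against 49.4, 39.6 and 62.1 CPM, without overlap. Its interaction was -1.22 (SE 0.32, edgeR adjusted p = 0.062), and Ahcy, Bckdha and Fah had edgeR adjusted p of 0.059, 0.054 and 0.079. Bcat2 (0.17, SE 0.20) and Kynu (0.03, SE 0.19) were the 2 genes above 0. Under HFD Kynu, the kynureninase, was at 101.7, 109, 137 and 115 CPM (WT) and 107, 103, 108 and 96.9 CPM (N-LKO). Its WD values were 103.8, 137 and 81.1 CPM (WT) and 92.5, 93.2 and 103 CPM (N-LKO), and the groups overlapped in both diets.

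**Figure D4:**
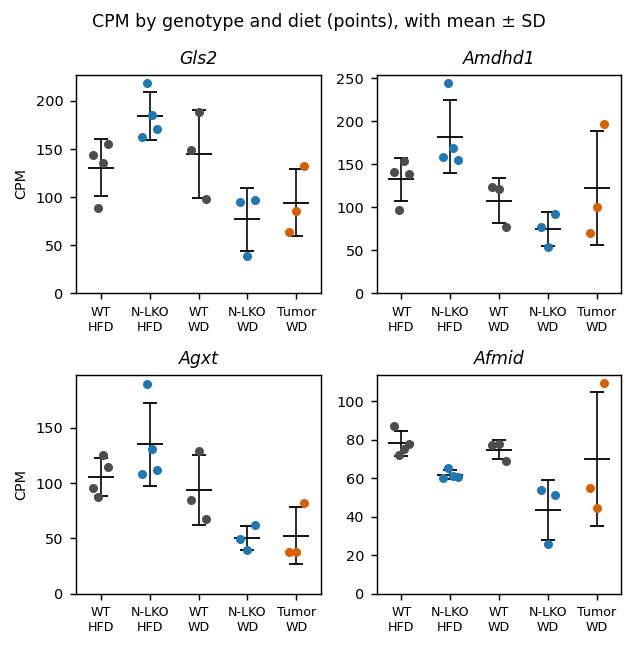
CPM of Gls2, Amdhd1, Agxt and Afmid in each library (points) by genotype and diet, with mean and SD (horizontal mark and bars). Gls2 lies above WT in every N-LKO library under HFD and below WT in every N-LKO library under WD, and Afmid lies below WT in both diets.

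In tumors, 7 of the 37 genes fell relative to WT livers under WD and none rose. They were Got1, Tat, Hpd, Mat1a, Ahcy, Aldh4a1 and Bckdhb, from transamination and the tyrosine, methionine, proline and branched chain pathways. The 7 genes are 18.9% of the 37, where edgeR called 14.9% of all genes in either direction and 6.8% as lower. At an unadjusted p under 0.05, 17 genes (45.9%) were lower, against 15.1% of all genes, and Gldc was higher. DESeq2 called 12 of the 37 lower (32.4%), against 10.3% of all genes, adding Got2, Gpt2, Cbs, Prodh and Aass. In 13 genes (35.1%) all tumor libraries lay below all WT libraries, as for 16.4% of all genes. The median log2 fold change was -0.41 over the 37 genes and 0.04 over all genes, with 34 of 37 below 0.

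Aldh4a1, which completes proline breakdown to glutamate, gave the firmest call. Its place in GRCm38 is chromosome 4, 139622866 to 139649690, plus strand. It was at 346, 347 and 292 CPM in WT livers and 163.3, 137.6 and 168 CPM in tumors, and the N-LKO livers were at 262, 154 and 247 CPM, overlapping the tumors. No tumor library reached the lowest WT library. Aldh4a1 carried fractional counts in all 9 libraries under WD, so its level is uncertain to the extent that reads were shared. The same was so for Hpd, Mat1a and Ahcy, while Got1, Tat and Bckdhb carried them in 5, 6 and 7 WD libraries. The log2 fold change was -1.07 (SE 0.20, edgeR adjusted p = 0.013), the gene passed whichever of the 9 libraries was left out, and adjusted p ran from 2.1e-05 to 0.049 over all alternatives. Prodh, the preceding enzyme, had a log2 fold change of -1.10 (SE 0.36, edgeR adjusted p = 0.068) and missed the threshold.

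Tat (chromosome 8, 109990437 to 109999803, plus strand), the first and rate-limiting enzyme of tyrosine breakdown, had the largest fall. It was at 452, 1095 and 349 CPM in WT livers and 311, 124 and 131 CPM in the tumors, with N-LKO livers at 465, 267 and 353 CPM. All tumors lay below all WT livers, and WT replicate 2 was far above the other WT libraries. The log2 fold change was -1.74 (SE 0.48, edgeR adjusted p = 0.038). Hpd (chromosome 5, 123171807 to 123182727, minus strand) acts next in the same pathway and was at 476, 237 and 655 CPM in tumors, all below WT (log2 fold change -1.39, SE 0.38, edgeR adjusted p = 0.038). The other 3 tyrosine enzymes, Hgd, Gstz1 and Fah, missed the threshold with log2 fold changes of -0.67, -0.71 and -0.54.

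Got1, the cytosolic aspartate transaminase (chromosome 19, 43499752 to 43524605, minus strand), was at 96.4, 200.2 and 64.8 CPM in WT livers and 60.3, 37.9 and 35.4 CPM in tumors. The groups did not overlap, but the highest tumor and the lowest WT library were close. Its log2 fold change was -1.43 (SE 0.38, edgeR adjusted p = 0.033). In the methionine cycle, Mat1a (chromosome 14, 41105035 to 41124412, plus strand) was at 3530, 6776 and 3798 CPM in WT livers and 2485, 1316 and 2736 CPM in tumors (log2 fold change -1.11, SE 0.33, edgeR adjusted p = 0.047). Both groups were again apart.

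Ahcy, which splits S-adenosylhomocysteine (chromosome 2, 155059310 to 155074497, minus strand), was at 530.5, 825 and 497 CPM in WT livers, 391, 313 and 383 CPM in N-LKO livers and 276, 141 and 406 CPM in tumors. Its log2 fold change in tumors was -1.17 (SE 0.34, edgeR adjusted p = 0.046). The tumors lay below WT but spanned the N-LKO livers. Bckdhb, a subunit of the branched chain ketoacid dehydrogenase (chromosome 9, 83925145 to 84124240, plus strand), was at 52.0, 46.9 and 49.6 CPM in WT livers, 50.9, 37.2 and 49.1 CPM in N-LKO livers and 33.8, 27.3 and 37.8 CPM in tumors (log2 fold change -0.59, SE 0.16, edgeR adjusted p = 0.038). All tumors were below all WT livers, and its partner subunit gene Bckdha had a log2 fold change of -0.37 that did not pass (edgeR adjusted p = 0.234).

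These calls rested on few libraries. With 1 library left out at a time, the number of the 37 genes past the threshold ran from 1 to 8, and Aldh4a1 was the single gene called in every such fit. Without WT replicate 2, and also without WT replicate 2 and N-LKO replicate 2 together, Aldh4a1 alone passed, and the median log2 fold change over the 37 genes was -0.34 and -0.33. Aldh4a1 alone passed also without WT replicate 1, N-LKO replicate 1, N-LKO replicate 3 or tumor replicate 2, and in a fit of the tumor and WT libraries only, while 3 genes passed without N-LKO replicate 2. In the other direction, the median was -0.77 without tumor replicate 3, with 23 genes at an unadjusted p under 0.05 and 8 past the threshold, and -0.55 without WT replicate 3, with 5 past it. Without tumor replicate 1, 7 genes passed, among them Gldc as higher. The count over all genes moved in the same fits. It was 2653 with all libraries, 569 to 3819 with 1 left out, 119 without WT replicate 2 and N-LKO replicate 2, and 705 in the fit of tumor and WT libraries only.

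**Figure D5:**
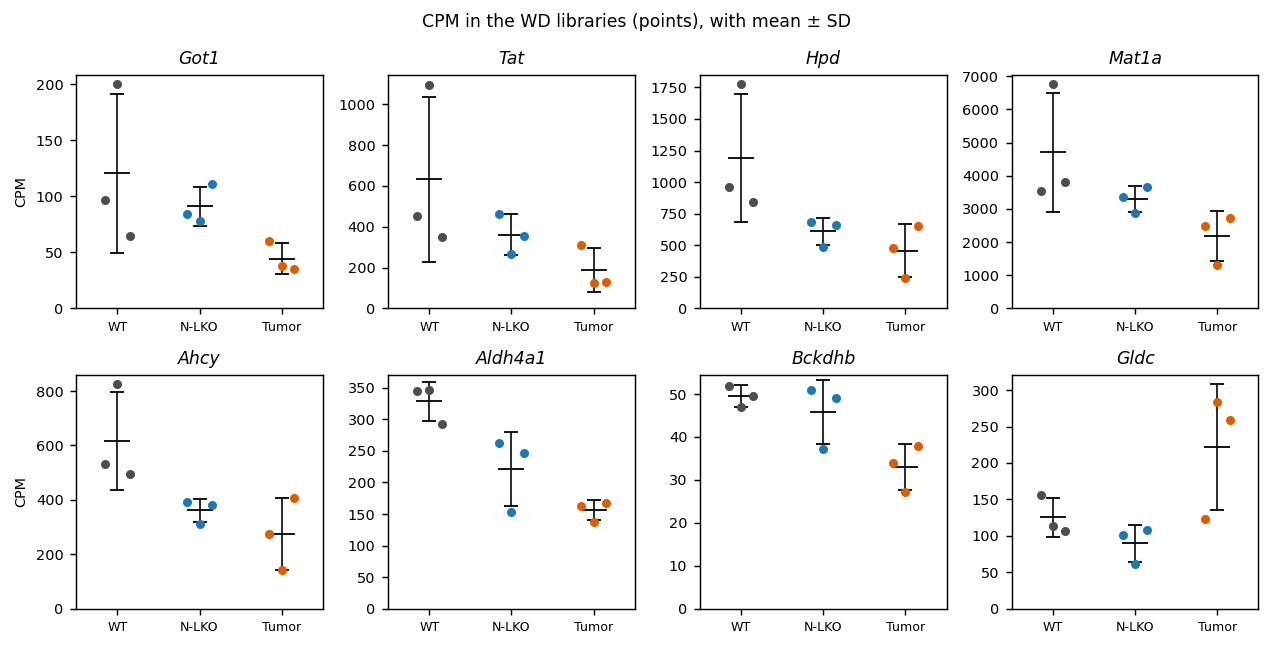
CPM of the 7 genes that fell in tumors relative to WT livers, and of Gldc, in each WD library (points), with mean and SD (horizontal mark and bars). For the 7 genes every tumor lies below every WT liver, WT livers of Got1, Tat, Hpd, Mat1a and Ahcy have 1 high library, and Gldc is highest in tumor replicates 2 and 3.

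The stretch just before the start of 4 of these genes is shown because the 7 genes moved together in 1 comparison. RefSeq promoter sequences of GRCm38.p6 were found for 30 of the 37 genes and 6 of the 7, and 4 windows of 100 bases lie wholly before the annotated gene. Sequences run 5′ to 3′ on the strand of the gene, and capitals mark CCAAT or its reverse complement ATTGG, the letters of the CCAAT box.
Got1, chr19:43524606-43524705, minus strand: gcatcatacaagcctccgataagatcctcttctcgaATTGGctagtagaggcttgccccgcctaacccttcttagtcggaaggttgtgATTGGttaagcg
Tat, chr8:109990336-109990435, plus strand: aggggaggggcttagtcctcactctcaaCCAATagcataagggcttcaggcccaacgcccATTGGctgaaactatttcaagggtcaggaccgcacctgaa
Ahcy, chr2:155074498-155074597, minus strand: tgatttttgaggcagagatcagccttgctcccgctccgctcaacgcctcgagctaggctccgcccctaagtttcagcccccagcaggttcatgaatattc
Bckdhb, chr9:83925037-83925136, plus strand: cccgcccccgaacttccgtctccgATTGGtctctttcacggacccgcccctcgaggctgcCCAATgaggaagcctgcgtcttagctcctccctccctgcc

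Got1, Tat and Bckdhb each held the 5 letters at 2 places of the window, and Ahcy at none. On either strand, CCAAT was in the window of 16 of 33 start sites of the 37 genes (48.5%) and of 6206 of all 32851 start sites (18.9%), non-coding genes included. The letters TATAAA, searched on both strands, were in 6.06% and 5.56% and in none of the 4 windows shown. Windows of Hpd and Aldh4a1, which overlap the annotated gene, were counted too. The start sites of the 37 genes and of all genes were not matched for gene type or level, so the shares are not a like comparison. These matches are of letters and do not show a bound site.

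Between tumor and N-LKO liver under WD, the 37 genes lay on both sides of 0. edgeR called 0 of the 37 genes and 0.499% of all genes, and at an unadjusted p under 0.05 it found 5 of the 37 (13.5%; Got1, Gpt2, Aldh4a1, Bckdhb and Gldc) and 18.3% of all genes. The median log2 fold change was -0.02 over the 37 genes and 0.02 over all genes. DESeq2 called 2 of the 37 (5.41%), Gldc higher and Gpt2 lower, and 5.73% of all genes. Gldc alone (2.7%) had all tumors above all N-LKO livers, as 11.5% of all genes did, and Got1, Gpt2 and Mat1a (8.11%) had all tumors below, as 11.6% of all genes did.

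Gldc was at 123, 284 and 259 CPM in the 3 tumors, and WD-fed livers were at 101, 61.1 and 108 CPM (N-LKO) and 156, 113 and 107 CPM (WT). Tumor replicates 2 and 3 stood above every liver, and tumor replicate 1 among the WT livers. The log2 fold change to N-LKO liver was 1.30 (SE 0.32, edgeR adjusted p = 0.092), and that to WT liver 0.82 (SE 0.32, edgeR adjusted p = 0.105). Gpt2 was at 633, 241 and 416 CPM in tumors, below all N-LKO and WT livers, with a log2 fold change of -1.11 to N-LKO liver (SE 0.30, edgeR adjusted p = 0.108). Got1 came next at -1.03 (SE 0.37, edgeR adjusted p = 0.189). Without tumor replicate 1, Gldc and Gpt2 passed (5.41% of the 37), in a fit where 2193 of 18285 genes (12.0%) passed, against 89 of 17829 with all libraries. Without WT replicate 2 and N-LKO replicate 2, 0 of the 37 and 0 of all genes passed, and the median over the 37 genes was -0.16 with 24 below 0.

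Roles differed in sign here. All 4 histidine enzymes were above N-LKO liver, with a median log2 fold change of 0.64, and all 5 tyrosine enzymes below it, with a median of -0.42, and none of the 9 passed. Hal was at 114.4, 175.8 and 300.3 CPM in tumors (log2 fold change 0.83, SE 0.43, edgeR adjusted p = 0.336), and Amdhd1 was at 70.2, 100.3 and 197 CPM in tumors, against 77.3, 53.7 and 92.5 CPM (N-LKO) and 124, 121 and 77.5 CPM (WT) in livers. Tumor replicate 3 gave the highest tumor value in 31 of the 37 genes and tumor replicate 2 the lowest in 24. Medians over the 37 genes, as log2 ratios to the WT mean, were -0.68, -0.90 and -0.13 in tumor replicates 1, 2 and 3. In Hal and Amdhd1 the tumors overlapped both liver groups. Bcat2 was at 10.6, 12.6 and 13.6 CPM in tumors, Sdsl at 3.27, 3.78 and 9.28 CPM and Kynu at 75.6, 84.5 and 103.6 CPM, all overlapping the N-LKO livers.

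A wider list of 60 other genes of amino acid breakdown gave 57 tested genes under HFD and 58 under WD. Under HFD, 1 of the 57 rose and 2 fell, where edgeR called 4.84% of all genes. Pcbd1, which recycles the cofactor of phenylalanine hydroxylase, rose (log2 fold change 0.41, SE 0.08, edgeR adjusted p = 0.018). Acadsb, of isoleucine breakdown, and Mtr, the methionine synthase, fell, with log2 fold changes of -0.31 and -0.48 (edgeR adjusted p = 0.029 and 0.046). Under WD, 56 of 58 were lower in N-LKO than in WT livers, with a median log2 fold change of -0.37, and 0 passed. The interaction passed for 4 of 58, against 1.62% of all genes, and all 4 were more negative under WD. They were Pcbd1 (-0.65), Shmt2 of serine and glycine interconversion (-0.74), Qdpr, which regenerates tetrahydrobiopterin (-0.72), and Gcat of threonine breakdown (-0.66). Their edgeR adjusted p ran from 0.029 to 0.049. Over all genes 257 passed, 923 in DESeq2 and 22 to 330 with 1 library left out. With the replicate block 0 passed, and 1 passed with the length and GC offset. Without WT WD replicate 2 and N-LKO WD replicate 2, 1 passed as well. At most 1 of these 4 genes can have passed in each of those last 3 fits.

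In tumors versus WT livers, 20 of the 58 fell and 1 rose, with a median log2 fold change of -0.54. edgeR called 6.8% of all genes as lower there. These calls are from the fit of all libraries. Over all genes the number called in that comparison was 2653, and 569 to 3819 with 1 library left out. The gene that rose was Crym, a ketimine reductase of lysine breakdown (log2 fold change 2.22, SE 0.55, edgeR adjusted p = 0.028). Auh of leucine breakdown (-0.81), Aadat of lysine and kynurenine breakdown (-1.19), Hoga1 of hydroxyproline breakdown (-0.82) and Gcdh of lysine breakdown (-1.07) had the lowest p-values, with edgeR adjusted p of 0.008 to 0.020. Against N-LKO livers 0 of the 58 passed.

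Of 13 amino acid transporters, 0 passed in either comparison of N-LKO with WT livers. In tumors versus WT livers 3 fell and 0 rose: Slc16a10, an aromatic amino acid transporter, Slc38a3, a glutamine transporter, and Slc7a2, a cationic amino acid transporter, at log2 fold changes of -1.56, -1.21 and -1.65 (edgeR adjusted p = 0.011, 0.035 and 0.042). Of 15 regulators of amino acid breakdown, 8 fell in tumors relative to WT livers and 0 rose. Among all genes, edgeR called 6.8% as lower in that comparison. The calls on transporters and regulators are from the fit of all libraries. Over all genes the number called was 2653, 569 to 3819 with 1 library left out, and 119 without WT replicate 2 and N-LKO replicate 2. Cebpb, a factor of the C/EBP family, the nuclear receptor gene Nr1i3, the bile acid receptor gene Nr1h4 and the hepatocyte factor gene Hnf4a had log2 fold changes of -1.22, -1.82, -0.56 and -0.75 (edgeR adjusted p of 0.009 to 0.027).

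Markers of zones and of other cells moved with some of these comparisons. The 14 periportal markers that are none of the 37 had a median log2 fold change of -0.53 in N-LKO versus WT livers under WD and 0.59 in tumor versus N-LKO liver. Against N-LKO liver, 9 of the 14 were above 0 in tumors and 5 below. Sox9, which is also on the cholangiocyte list, alone passed there, as higher. The periportal list was mixed in tumor versus WT liver, with a median of -0.19, 6 above 0 and 8 below. Sox9 and Cdh1 rose in that comparison, and Igf1 and Pck1 fell. The 15 pericentral markers had a median of -1.76 in tumor versus N-LKO liver, with all 15 below 0 and 0 past the threshold. In tumor versus WT liver their median was -1.80, again with all 15 below 0, and Cyp2c29 and Tbx3 fell (log2 fold changes -1.80 and -2.33, edgeR adjusted p = 0.003 and 0.019). The 15 markers summed to 623 to 6115 CPM in tumors, against 9401 to 9897 CPM for the N-LKO livers. In tumors versus WT livers the hepatocyte defining markers had a median log2 fold change of -0.75, and Ttr, Hnf4a and Apoa2 fell (3 of 7). Sox9 and Spp1 (2 of 8) rose among the cholangiocyte markers, and Cd4 and Cd3g (2 of 8 tested) among T and B cell markers. All 7 hepatocyte defining markers were below 0, from -0.81 to -0.03. Their summed level was 36046 to 61209 CPM in tumors, against 45727 to 55743 CPM in WT livers under WD. Tumor replicate 3 had the highest sum, above every WT liver of that diet. Hnf4a was also among the 8 regulators that fell. The marker calls in tumors versus WT livers are from the fit of all libraries, in which edgeR called 14.9% of all genes.

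Summed cholangiocyte markers were at 29.4 to 84.3 CPM in WT livers, 131 to 167 CPM in N-LKO livers and 218 to 545 CPM in tumors under WD, and T and B cell markers at 4.00 to 5.90, 6.31 to 9.89 and 10.2 to 16.5 CPM. Most of the cholangiocyte sum was Spp1, at up to 489.6 CPM, while the bile duct keratin gene Krt19 reached 1.21 CPM at most. In tumor versus N-LKO liver 5 of the 8 cholangiocyte markers were below 0, the median log2 fold change was -0.66, and Sox9 alone passed, as higher. As log2 ratios to the WT mean, the list's medians were 1.15, -0.23 and -0.62 in tumor replicates 1, 2 and 3, against 0.53 to 0.78 in N-LKO livers. Stellate cell and fibroblast markers summed to 453 to 950.4 CPM, 919 to 1113 CPM and 628 to 1110 CPM in the same order, and Lum rose and Reln fell in tumors versus WT livers. Endothelial markers summed to 360 to 399 CPM, 346 to 395 CPM and 377 to 397 CPM, and Kupffer cell and macrophage markers to 613 to 986 CPM, 674 to 781 CPM and 421 to 795 CPM. Single markers nonetheless passed in tumors versus WT livers. Pecam1 and Cdh5 rose (log2 fold changes 1.08 and 0.71) and Clec4g fell (-1.39) among the endothelial markers, and Timd4 (-3.11) and Cd5l (-1.36) fell among the Kupffer cell and macrophage markers. Under HFD 3 of 9 tested Kupffer cell and macrophage markers fell in N-LKO livers. They were Timd4, Clec4f and Vsig4 (log2 fold changes -2.19, -0.90 and -1.002). Of the 9, 8 were below 0 and 1 was above 0, at 1.40. Of 8 endothelial markers Stab2 fell (-0.61), and of 3 tested cholangiocyte markers Spp1 rose (1.55). Stellate cell and fibroblast markers had a median of 0.91, with 7 of 9 tested above 0 and 0 past the threshold. Among all genes, edgeR called 4.84% under HFD. The part of these markers in the values of the amino acid breakdown genes was not tested.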

How the data were processed

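RNA-seq was analysed from 17 mouse samples, 8 under HFD and 9 under WD, grouped by their titles. The files hold estimated counts for each gene, made by the authors from rRNA-depleted, single-end HiSeq reads without scaling or pooling. The processing notes name STAR, Partek and mm9, while the study's methods name TopHat2. Gene starts were those of GENCODE M21 (GRCm38) for 18619 of 19151 HFD and 23459 of 24233 WD genes, and positions are from that annotation. Of the values, 69.7% and 66.6% were whole. Fractions are reads shared between features, so paralogs, overlapping and antisense genes are uncertain. 0 columns of per-sample values were left unassigned. No libraries within a group were the same (chi-square of counts per degree of freedom at least 7.99).

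Counts were rounded and tested in edgeR 4.0.16 (R 4.3.3; quasi-likelihood F test, TMM, filterByExpr, Benjamini-Hochberg adjusted p under 0.05). CPM used TMM-scaled library sizes. As an approximate SE, the log2 fold change over the root of its F statistic was used. HFD libraries were fitted alone and the 3 WD groups together. Tumor comparisons share the liver groups of WD. The interaction was fitted over 14 livers and the 19032 genes in both tables. The common biological coefficient of variation was 0.149 (HFD), 0.243 (WD) and 0.163 (interaction). The study's own test needs aligned reads, which were not used here. The fits of HFD, tumor versus WT liver and the interaction were run on simulated counts with a common spread for all genes. N-LKO versus WT liver under WD and tumor versus N-LKO liver were not simulated. Shifts of many genes in a single library were not simulated either.

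The 37 genes and the lists were chosen with earlier results of these data known. Given in every library were the genes past the threshold in any comparison and the 2 largest positive and 2 largest negative differences of each. From other lists up to 4 genes past the threshold with the lowest p were named per comparison. Crym, Amdhd1, Agxt and Kmo were also named after their values were seen. The values of 1 listed gene are not reported here. Alternatives were DESeq2 1.42.0 size factors and Wald test, no filter, an offset for length and GC content, a replicate block, fits of 2 groups, and fits without 1 library. Fits of the WD groups and of the interaction without WT WD replicate 2 and N-LKO WD replicate 2 were added after seeing the data.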

Additional observations from a re-analysis of the deposited data

Results flagged for a closer look

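In the HFD groups of 4 libraries, 74 sets of values of the 37 genes were examined for a library far from the other 3. 4 were found, and chance gives about 1 in 20. Amdhd1 was at 245 CPM in N-LKO replicate 2, against 155 to 169 CPM in the other N-LKO livers. Bckdhb was at 43.6 CPM in WT replicate 2, against 54.0 to 54.6 CPM. In WT replicate 1, Bcat2 was at 15.1 CPM against 18.6 to 19.3 CPM, and Mccc1, a subunit of methylcrotonyl-CoA carboxylase of leucine breakdown, was at 45.5 CPM against 37.9 to 39.1 CPM. None of these 4 genes passed the test under HFD. Groups of 3 under WD were not examined in this way, and no genotype effect of the 37 genes differed between diets past the threshold in edgeR.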

How the results depend on the processing

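Under HFD, the number of the 37 genes past the threshold was 1. It was 0 without the filter on low counts, 2 in DESeq2, 0 with the replicate block, and 0 to 1 with 1 library left out. Under WD it was 0 in N-LKO versus WT liver under every alternative run. In tumor versus N-LKO liver it was 0, 2 in DESeq2, and 0 to 2 with 1 library left out. In tumor versus WT liver it was 7, 12 in DESeq2, 4 with the replicate block (Gpt2, Prodh, Aldh4a1 and Bckdhb), 1 in the fit of only the 2 groups, 1 without WT replicate 2 and N-LKO replicate 2, and 1 to 8 with 1 library left out. For the interaction it was 0, 7 in DESeq2, and 0 to 4 with 1 library left out, the 4 being Gls2, Ahcy, Bckdha and Agxt without WT WD replicate 3. The cause of these changes was not tested. Other counts of the 37 genes stayed within 1.5 times. Over all 5 comparisons, no call of a single gene changed direction, 68 values lost the threshold, 32 gained it, 19 that had not passed changed sign by more than their SE, and 2878 kept their side of it. Counts over all genes moved more. They were 652 under HFD (DESeq2 999, length and GC offset 310, 1 library left out 179 to 597), 0 in N-LKO versus WT liver under WD (DESeq2 99, 2 groups only 6, 1 library left out 0 to 1), 89 in tumor versus N-LKO liver (DESeq2 1021, replicate block 36, 2 groups only 29, 1 library left out 3 to 2193, without WT replicate 2 and N-LKO replicate 2 0), 2653 in tumor versus WT liver (2 groups only 705, 1 library left out 569 to 3819, without WT replicate 2 and N-LKO replicate 2 119) and 257 for the interaction (DESeq2 923, replicate block 0, length and GC offset 1, 1 library left out 22 to 330, without both libraries 1).

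Replicate numbers in the titles gave no sign of pairing. The deviations of same-numbered libraries correlated at -0.12 to 0.11 over 13 pairs, and 7 of 26 best matches between groups had the same number. Library names carry other numbers, and pairing by those names was not tested. By name, tumor replicate 1 shares its number with N-LKO replicate 1, and tumor replicate 2 with N-LKO replicate 3. Their deviations correlated at 0.10 and 0.08. Groups of 3 under WD limit what can be called: the SE of the log2 fold change in N-LKO versus WT liver was 0.16 to 0.62 over the 37 genes.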
